A study of Homo sapiens with 267 samples.

Results

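The genes described here are the SR proteins, their close relatives and the hnRNP proteins, the 2 large groups of RNA-binding proteins that steer splice site choice. Members were the rows of the deposited count table whose Ensembl identifiers map to a given list of 35 symbols, 13 of SR and SR-related genes and 22 of hnRNP genes, out of 63677 genes in the table. Of the 35, 34 had reads. The identifier that the annotation pairs with SRSF8 was listed at 0 in every library, and since the annotation used here is later than the one the reads were counted with, no level was read from it. The libraries were made from K562, a human line from a chronic myeloid leukaemia with erythroid features, largely from cells caught singly on the Fluidigm C1 system, and amplified with SMARTer chemistry, in a study of the reversible cross-linker DSP as a preservative for single cells.

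Sample titles name 3 runs. In the Hoechst run (82 libraries used of 96), untreated K562 cells of passage 90 to 92 were stained with the DNA dye Hoechst (2 µM) and propidium iodide (3.75 µM). In the benzene run and in the imatinib run, K562 cells of another lot, at passage 20 to 22, were stained with CellTracker Green and left untreated, or stained with CellTracker Orange and treated, with both dyes at 1 µM. The treatment was benzene at 10 mM for 3 h (31 Green and 34 Orange libraries used) or imatinib, an inhibitor of the BCR-ABL1 kinase, at 1 µM for 1 h (50 Green and 45 Orange). Lot, passage, stain and run cannot be told apart between the Hoechst run and the other 2. Nor can sequencing instrument, read length, share of fixed cells and time of storage where these differed between runs. The same holds for the choice of live cells. By the paper, dead cells marked by propidium iodide were sequenced in its Hoechst experiment, while cells marked dead were left out in its CellTracker experiments. Drug and stain cannot be told apart within a run. The labels do not say which libraries were fresh, fixed, bulk or from sites with no cell or several, so the libraries of a group were summed and treated as 1 sample.

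SR proteins carry RNA recognition motifs and a tail rich in arginine and serine, bind enhancer sequences in exons and help the spliceosome to define them. hnRNP proteins coat nascent transcripts and often act against SR proteins at silencer sequences. Many members of both groups also shape mRNA export, stability and translation, and several limit their own level through unproductive splicing of their own transcripts.

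The 242 libraries used held 50358 to 2043351 reads on genes. A further 21 libraries, in which over 70% of the gene reads lay in the 500 most abundant genes, were left out. The median library had 7410.5 genes with more than 2 reads in the Hoechst run, 5905 in the benzene run and 8022 in the imatinib run, and a median of 12.5%, 6.48% and 6.68% of mitochondrial reads. The 10 K562 markers summed to between 3856 and 5674 counts per 1000000 gene reads (CPM) in the 3 runs. Among 12 markers of lymphoid, epithelial, fibroblast and hepatocyte cells, KRT18 (203 to 239.9 CPM) and PTPRC (59.2 to 88.98 CPM) made up most of the reads, while MS4A1, CD79A, CD3E and CDH1 were at most 0.259 CPM. Their part in the results was not tested.

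The sequences before the start sites of 5 members are shown because these genes were at least 2-fold higher (SRSF3, SRSF7) or lower (HNRNPA3, HNRNPLL, SRSF9) in the untreated libraries of a CellTracker run than in the Hoechst run. They are the 250 bases before the start, 5′ to 3′, as RefSeq gives them on GRCh38.p14: SRSF3 at chr6:36594112-36594361 on the plus strand, SRSF7 at chr2:38751495-38751744 on the minus strand (the first of 2 starts listed), HNRNPA3 at chr2:177212544-177212793 on the plus strand, HNRNPLL at chr2:38602929-38603178 on the minus strand and SRSF9 at chr12:120469749-120469998 on the minus strand. Capitals mark matches, on either strand, to 7 short motifs: the CCAAT box (CCAAT), the GC box (GGGCGG), the TATA box (TATAAA), an ETS site (CCGGAAG), the E box (CACGTG), a CRE half-site (TGACGT) and an NRF1 core (GCGCATGC). No match overlapped another in the sequences shown.
SRSF3: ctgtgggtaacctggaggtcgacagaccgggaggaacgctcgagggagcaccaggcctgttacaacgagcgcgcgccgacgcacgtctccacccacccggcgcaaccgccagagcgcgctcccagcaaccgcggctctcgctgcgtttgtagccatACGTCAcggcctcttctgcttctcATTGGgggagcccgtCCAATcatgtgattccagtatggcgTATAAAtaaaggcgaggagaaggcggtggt
SRSF7: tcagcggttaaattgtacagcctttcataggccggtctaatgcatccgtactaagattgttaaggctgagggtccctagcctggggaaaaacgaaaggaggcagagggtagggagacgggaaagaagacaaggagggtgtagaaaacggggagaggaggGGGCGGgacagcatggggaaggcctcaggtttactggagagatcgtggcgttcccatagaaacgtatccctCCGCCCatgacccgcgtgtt
HNRNPA3: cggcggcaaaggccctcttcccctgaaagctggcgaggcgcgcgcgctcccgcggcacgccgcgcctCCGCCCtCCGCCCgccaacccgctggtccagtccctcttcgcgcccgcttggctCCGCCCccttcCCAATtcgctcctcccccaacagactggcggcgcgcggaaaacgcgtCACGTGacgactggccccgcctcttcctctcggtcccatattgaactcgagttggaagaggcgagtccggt
HNRNPLL: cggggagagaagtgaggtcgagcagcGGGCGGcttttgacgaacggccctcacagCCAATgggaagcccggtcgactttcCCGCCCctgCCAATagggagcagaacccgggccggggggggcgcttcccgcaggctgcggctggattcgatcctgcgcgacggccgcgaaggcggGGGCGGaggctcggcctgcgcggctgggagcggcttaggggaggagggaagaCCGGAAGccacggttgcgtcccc
SRSF9: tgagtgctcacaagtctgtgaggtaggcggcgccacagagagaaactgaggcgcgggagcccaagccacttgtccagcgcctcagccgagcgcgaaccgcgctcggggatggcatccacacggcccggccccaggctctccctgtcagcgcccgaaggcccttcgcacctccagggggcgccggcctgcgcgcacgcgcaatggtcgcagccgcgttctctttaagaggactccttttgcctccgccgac

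A TATA box lay close to the start of SRSF3, behind 2 CCAAT boxes and a CRE half-site. The SRSF7 stretch held 2 GC boxes and was the poorest of the 5 in G and C, at 54.8%, against 68.4% for SRSF9, which held none of the 7 motifs. HNRNPA3 held 3 GC boxes, 1 CCAAT box and 1 E box, and HNRNPLL held 3 GC boxes, 2 CCAAT boxes and 1 ETS site. Across the 46 promoters that RefSeq lists for 32 of the 35 members, 47.8% held a CCAAT box and 58.7% a GC box, against 32% and 42.6% of all 35116 promoters. The TATA box was in 15.2% of member promoters and in 10.7% of all. Member promoters had a median of 65% G and C, against 58% for all promoters. The part of this difference in the shares was not tested, and a member with several promoters counts more than once. A match describes the letters of the sequence and is not a site shown to be bound.

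Per library, the 12 SR and SR-related genes with reads together took 1468 to 5374 CPM in the Hoechst run (median 2777) and the 22 hnRNP genes 3693 to 13434 CPM (median 7271). In untreated Green libraries the SR sum had a median of 3262 CPM in the benzene run and 3910.3 in the imatinib run, and the hnRNP sum a median of 4898 and 7532. The SR sum lay below the hnRNP sum in the median library of every run, with a log2 ratio of −1.46 ± 0.55 (SD, n = 82 libraries) in the Hoechst run, −0.76 ± 0.60 (n = 65) in the benzene run and −1.04 ± 0.41 (n = 95) in the imatinib run. These ranges overlapped widely between runs.

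Per kilobase of merged exons, the 3 highest members of the Hoechst run were HNRNPA1 (172 reads per kilobase per 1000000 reads), HNRNPF (109) and HNRNPH1 (96.4). In the benzene run they were SRSF7 (189), HNRNPF (186) and SRSF3 (129.8), and in the imatinib run HNRNPF (289.8), SRSF6 (214) and SRSF3 (139.6). Reads of genes named after a member bear on this order. These genes, called retrocopies here, have a member's symbol followed by P and a number, or by L with or without one. Most are processed pseudogenes, but protein-coding genes such as HNRNPA1L3 and RBMXL1 are among them, and their likeness to the member was not measured. With their reads added to their member, HNRNPA1 stood at 250.1 in the Hoechst run, at 159.6 in the benzene run and at 191 in the imatinib run. It was first in the Hoechst run and took the place of SRSF3 as the third in the other 2. With the longest coding transcript as the length, 2 of the 3 leading members stayed in each run, and HNRNPA2B1 or RBMX came in. Of the members with reads, SRSF10, HNRNPUL2 and HNRNPA0 were lowest in the Hoechst run at 2.67, 2.91 and 7.44, and SRSF10 and HNRNPUL2 were lowest in the other 2 runs too, at 1.94 and 1.57 in the benzene run and 2.26 and 1.03 in the imatinib run. The next lowest were HNRNPA0 (3.52) in the benzene run and HNRNPLL (3.09) in the imatinib run. The full merged length was used also where exon bases are shared with another gene, as 44.3% of those of HNRNPUL2 are.

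**Figure D1:**
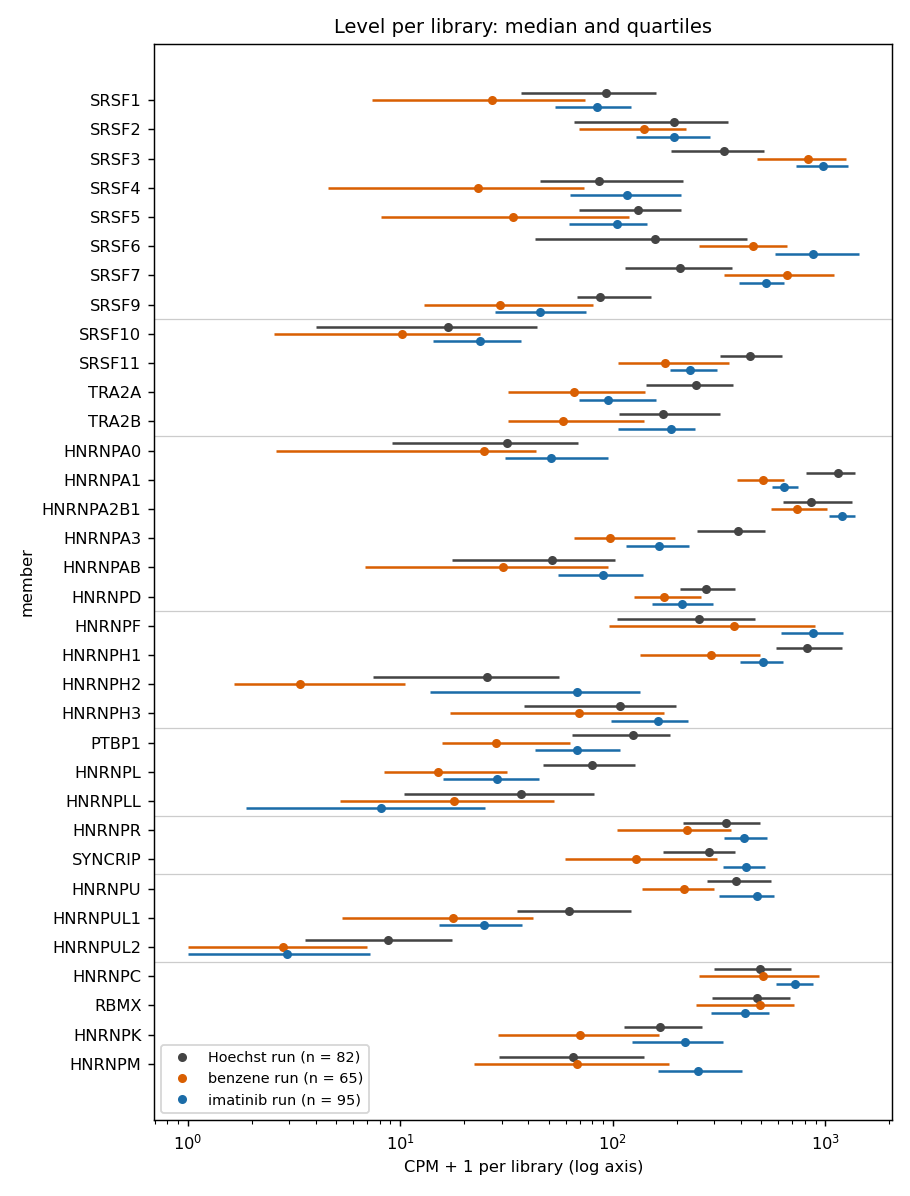
Median (points) and quartiles (lines) of CPM + 1 per library, on a log axis, for the 34 members with reads in the Hoechst (n = 82), benzene (n = 65) and imatinib (n = 95) runs, grouped by family with grey lines between subgroups. SRSF3, SRSF6 and SRSF7 sat further right in the benzene and imatinib runs than in the Hoechst run, and HNRNPA1 further left.

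Detection, taken as more than 2 reads in a library, was near complete. The median library held 33 members in the Hoechst run, 32 in the benzene run and 33 in the imatinib run, and 11 members were detected in every one of the 242 libraries: HNRNPA1, HNRNPA2B1, HNRNPA3, HNRNPC, HNRNPD, HNRNPH1, HNRNPU, RBMX, SRSF3, SRSF11 and TRA2A. When each library was thinned to 500000 reads, which left out 2 Hoechst libraries, the medians were 33, 30 and 32. Those missed most often included HNRNPUL2, detected in 75.6%, 50.8% and 49.5% of the libraries of the Hoechst, benzene and imatinib runs, and HNRNPH2, detected in 89%, 53.8% and 90.5%. HNRNPLL was detected in 69.5% of imatinib-run libraries against 89% of Hoechst-run libraries. The share of all genes, or of genes of like level, found in every library was not computed. The counts of detected members therefore do not set members apart.

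The untreated libraries of the 3 runs were compared as sums, with the log2 ratio of CPM (pseudocount 1) and a 2-fold mark. With 1 sum a group there is no test, and the 95% Poisson intervals quoted cover counting error only, since reads from amplified cDNA are not independent molecules. In benzene-run Green libraries, 2 of 34 members were at least 2-fold higher than in the Hoechst run, against 11.8% of 11052 genes, and 13 were at least 2-fold lower, against 26.7% of genes. The median log2 ratio of the members was −0.80 and that of all genes −0.27. In imatinib-run Green libraries 5 members were 2-fold higher, against 13% of 11719 genes, and 8 were 2-fold lower, against 20.6%, with medians of −0.18 for members and −0.13 for genes. Imatinib-run Green libraries had 8 members 2-fold higher than benzene-run Green libraries, against 19.9% of 11098 genes, and 0 lower, against 11.9%, with medians of 0.55 and 0.13. The 3 comparisons share samples, so a member's values in them are not independent.

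The scaling and weighting bear on these counts. With sums scaled by trimmed means (TMM), the median of all genes moved from −0.27 to 0.02 between the benzene and Hoechst runs, 18.3% of genes were 2-fold higher and 20.5% lower, and 4 members were higher (HNRNPF and SRSF6 beside SRSF3 and SRSF7) and 6 lower. With equal weight for each library in place of sums, 3 members were higher and 19 lower in the benzene run than in the Hoechst run, where 4.89% and 31.8% of all genes were. In the imatinib run 8 were higher and 4 lower than in the Hoechst run, beside 21.1% and 10.2% of genes, and against the benzene run 21 were higher and 0 lower, beside 38.9% and 2.19%. The median library of the benzene run had fewer detected genes than those of the other runs, as given above, and its part in these values was not tested.

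**Figure D2:**
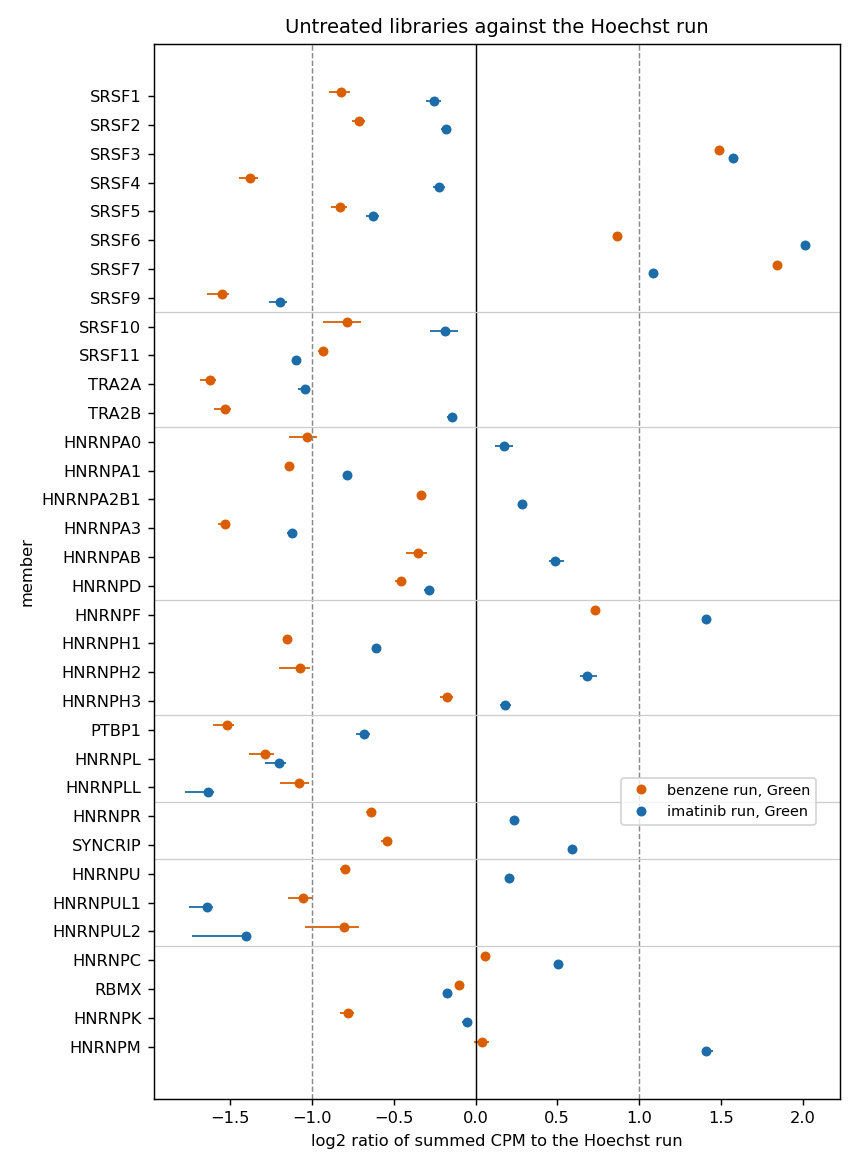
Log2 ratio of summed CPM in untreated Green libraries of the benzene run (orange, n = 31) and the imatinib run (blue, n = 50) to the Hoechst run (n = 82), for 34 members, with 95% Poisson intervals of the counts (without pseudocount) as lines and 2-fold marks dashed. SRSF7 (1.85) and SRSF6 (2.02) are the highest points of the benzene and imatinib runs, TRA2A (−1.63) and HNRNPUL1 (−1.64) the lowest, and both sets share the Hoechst libraries.

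Among the 9 classical SR genes, SRSF3 and SRSF7, whose proteins couple splicing to mRNA export, and SRSF6 stood highest against the Hoechst run. SRSF3 (GRCh37 chr6:36562130-36573377) had 30.7 to 929 CPM (median 332) in the Hoechst run, 56.4 to 3519 (median 1031) in benzene-run Green and 466 to 1967 (median 1092) in imatinib-run Green libraries. All 50 imatinib-run Green libraries lay above the Hoechst median, and 32 lay above the highest Hoechst library. The log2 ratio of sums was 1.49 (95% Poisson interval 1.47 to 1.51) in the benzene run and 1.57 (1.56 to 1.59) in the imatinib run. SRSF7 (chr2:38970741-38978636) had medians of 207, 658 and 485 CPM in the same groups, with ratios of 1.85 (1.83 to 1.87) and 1.09 (1.07 to 1.11), and 93.5% of benzene-run Green libraries lay above the Hoechst median. SRSF3 stayed past 2-fold in both runs under each of 10 alternatives of weighting, scaling, filtering and left-out libraries, and SRSF7 did so in the benzene run. Not all of the 10 could change a ratio, since dropping the gene filter leaves it as it was. In the imatinib run, CPM without mitochondrial genes took SRSF7 to 0.99.

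SRSF6 (chr20:42086533-42094686), an SR protein with a pair of RNA recognition motifs, had the largest ratio of the group. It ranged from 6.53 to 2469 CPM (median 157) in the Hoechst run, from 2.97 to 1841 (median 339) in benzene-run Green and from 196 to 3578 (median 856) in imatinib-run Green libraries. The ratio to the Hoechst run was 0.87 (0.84 to 0.90) in the benzene run and 2.02 (2.00 to 2.04) in the imatinib run, and 1.15 between the CellTracker runs. Its relatives had ratios of sums below 0, SRSF4 of −1.38 and −0.22, and SRSF5 of −0.83 and −0.63. The second value of SRSF4 turned to 0.27 with equal weight for each library, and 72% of imatinib-run Green libraries lay above the Hoechst median. Within single libraries, the log2 ratio of SRSF4 to SRSF6 had a median of −0.47 in the Hoechst run, with SRSF4 the higher in 36 of 82 libraries, and medians of −4.47 and −2.88 in benzene-run and imatinib-run Green libraries, with SRSF4 higher in 4 of 31 and 2 of 50.

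SRSF9, a short SR protein, was lower in both CellTracker runs, with a median of 86.3 CPM in the Hoechst run, 18.3 in benzene-run Green and 37.96 in imatinib-run Green libraries and ratios of −1.55 and −1.19. Of its exon bases, 46.7% are shared with GATC and NRAV in the annotation used here, so reads there cannot be told apart by position. The paper lists ambiguous reads apart from assigned ones, so such reads may be missing from the counts. In benzene-run Green, 1 library gave 38.4% of its reads, and without it the ratio was −2.18. SRSF4 in the benzene run rested on few libraries: 1 library gave 44.7% of its reads in the Green group, the ratio was −2.16 without it, and SRSF4 was detected in 71% of those libraries against 100% of Hoechst libraries. SRSF1, the founding SR protein, and SRSF2, which binds exonic sequences through a single recognition motif, had ratios of sums between −0.82 and −0.18 in both comparisons, but 0.07 and 0.46 in the imatinib run with equal weight for each library. Without the Green library richest in it, SRSF1 passed 2-fold in the benzene run (−1.17), and without the Hoechst library richest in SRSF6 that gene did (1.00). Leaving out the library richest in a gene lowers that gene's level in its group. The direction of each such change, here and below, was thus set in advance, and its size tells how far a value rests on 1 library.

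The 4 SR-related genes had ratios of sums below 0 in both comparisons with the Hoechst run. With equal weight for each library, SRSF10 (0.66) and TRA2B (0.16) turned above 0 in the imatinib run, where 72% and 64% of Green libraries lay above the Hoechst median. TRA2A and TRA2B encode the transformer-2 proteins, which activate exons with GA-rich enhancers. TRA2A (chr7:23544399-23571660) had 8.50 to 1446 CPM (median 245) in the Hoechst run, 6.63 to 592 (median 64.8) in benzene-run Green and 24.2 to 348 (median 120.4) in imatinib-run Green libraries, with ratios of −1.63 (−1.68 to −1.59) and −1.04 (−1.08 to −1.01). The imatinib-run value fell short of 2-fold under 4 of 10 alternatives. TRA2B had ratios of −1.53 in the benzene run and −0.14 in the imatinib run, and it was 1.39 higher on the log2 scale in imatinib-run than in benzene-run Green libraries. SRSF11, an SR-related protein with medians of 443, 178 and 223 CPM, had ratios of −0.93 and −1.09. Without the benzene-run Green library richest in each, SRSF11 (−1.16) and SRSF10 (−1.02) also passed 2-fold in the benzene run.

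**Figure D3:**
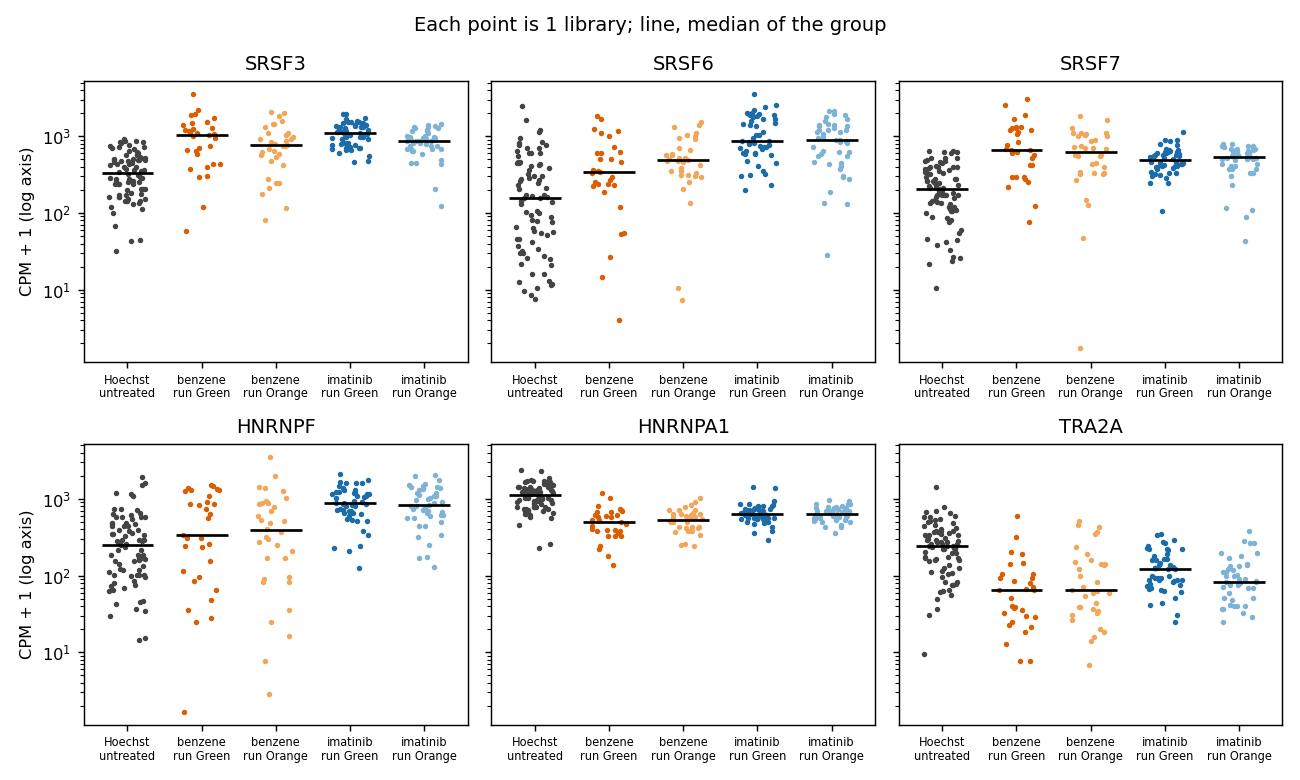
CPM + 1 on a log axis of 6 members in each library (points) of the 5 groups, with the group median as a line. SRSF3, SRSF6 and SRSF7 had higher medians in the 4 CellTracker groups than in the Hoechst run, HNRNPA1 and TRA2A lower ones, and the points of different groups overlap for every gene shown.

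In the hnRNP A/B and D subgroup, HNRNPA1, the best known partner and opponent of SRSF1, was among the most even members from library to library. It had 230.1 to 2354 CPM (median 1141) in the Hoechst run, 138 to 1195 (median 505) in benzene-run Green and 292 to 1426 (median 643) in imatinib-run Green libraries. Few libraries of the CellTracker runs reached the Hoechst median, 3.23% and 4% of them, and the ratios were −1.14 and −0.79. HNRNPA1 has 76 retrocopies by the match of names, of which 65 had reads. Their reads made up 31.4% of all reads on HNRNPA1 and its retrocopies in the Hoechst run, 50.03% in the benzene run and 48.6% in the imatinib run, and with them added the ratios were −0.67 and −0.38. HNRNPA2B1, its close relative, had ratios of −0.33 and 0.28. By reads on its own gene, HNRNPA1 was the higher of the 2 in 48 of 82 Hoechst libraries, in 7 of 31 benzene-run Green and in 1 of 50 imatinib-run Green libraries. With retrocopy reads added to HNRNPA1 these counts were 71, 23 and 26, so the order in the CellTracker runs depends on whether those reads are counted with HNRNPA1.

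HNRNPA3 (chr2:178077422-178088687) had medians of 385, 108 and 178 CPM and ratios of −1.53 and −1.12. Retrocopies held 11.3%, 14.7% and 20.4% of the reads on HNRNPA3 and its retrocopies together in the 3 runs, 54.8% of its exon bases are shared with NFE2L2 and a microRNA gene, and with retrocopy reads added the imatinib-run ratio was −0.96. HNRNPA0 was 2-fold lower in the benzene run (−1.03) and 0.17 higher in the imatinib run. Without the 1 Hoechst library that held 24.8% of its reads, the benzene-run value was −0.65. HNRNPAB and HNRNPD, which binds AU-rich elements as AUF1, had ratios between −0.45 and 0.49. Between the CellTracker runs HNRNPA0 was 1.20 higher on the log2 scale in imatinib-run Green, and HNRNPAB 0.84 higher, or 1.21 without its richest benzene-run library.

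Of the hnRNP F/H genes, whose proteins bind runs of G, HNRNPF (chr10:43881065-43904634) was the one above the Hoechst run in both. It had 13.7 to 1957 CPM (median 254) in the Hoechst run, 0.679 to 1498 (median 338) in benzene-run Green and 124.6 to 2132 (median 879) in imatinib-run Green libraries, with ratios of 0.73 and 1.41. HNRNPH1 had medians of 815, 296 and 512 CPM and ratios of −1.15 and −0.61. Within libraries, HNRNPF was above HNRNPH1 in 16 of 82 Hoechst libraries and in 40 of 50 imatinib-run Green libraries. HNRNPH2, the X-linked copy, had medians of 24.5, 2.67 and 64.3 CPM, a ratio of −1.08 in the benzene run, and was 1.76 higher on the log2 scale in imatinib-run than in benzene-run Green libraries. In benzene-run Green, 52.3% of its reads came from 1 of 31 libraries, without which these values were −2.03 and 2.71.

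PTBP1, a repressor that binds pyrimidine tracts, and the related HNRNPL and HNRNPLL, which bind CA-rich RNA, all lay below the Hoechst run. PTBP1 had medians of 123, 26.02 and 84.1 CPM and ratios of −1.52 and −0.68. HNRNPL had medians of 79.2, 19.1 and 30.9 CPM and ratios of −1.29 and −1.20, with 4 of 31 and 4 of 50 Green libraries below the lowest Hoechst library. One benzene-run Green library gave 36.8% of its reads there, and the ratio was −1.87 without it. HNRNPLL had medians of 36.2, 10.3 and 7.55 CPM and ratios of −1.08 and −1.64, and all 3 groups had libraries at 0. Without the Hoechst library richest in it, the benzene-run ratio was −0.95. Without the benzene-run Green library richest in PTBP1, that gene was 1.20 higher on the log2 scale in the imatinib run than in the benzene run, against 0.84 with it.

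Among the hnRNP U genes, HNRNPU, a nuclear matrix protein, and its relative HNRNPUL1 differed in direction in the imatinib run. HNRNPU had ratios of −0.80 in the benzene run and 0.20 in the imatinib run, while HNRNPUL1 had medians of 61.1, 14.7 and 24.7 CPM and ratios of −1.06 and −1.64. The first was −0.98 without the richest Hoechst library and −1.65 without the richest Green library. HNRNPU was 1.00 higher on the log2 scale in imatinib-run than in benzene-run Green libraries, and 0.98 without its richest imatinib-run library. HNRNPUL2, at 15.7, 8.59 and 5.33 CPM of the sums, had ratios of −0.80 and −1.403, a benzene-run value of −1.01 without the richest Green library, and 44.3% of its exon bases shared with the read-through gene HNRNPUL2-BSCL2. HNRNPR and SYNCRIP, the hnRNP R and Q proteins, stood at −0.64 and −0.54 in the benzene run and at 0.24 and 0.59 in the imatinib run, and SYNCRIP was 1.13 higher on the log2 scale in the latter than in the former.

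Of the other 4 hnRNP genes, HNRNPK, a poly(C)-binding protein, had ratios of −0.78 and −0.05, and the rest lay near 0 in the benzene run. HNRNPM had 0 to 715 CPM (median 64.3) in the Hoechst run, 0.679 to 554 (median 48.9) in benzene-run Green and 32.4 to 1219.5 (median 258) in imatinib-run Green libraries, with ratios of 0.04 and 1.41 and a ratio of 1.37 between the CellTracker runs. HNRNPC, which binds uridine tracts, had ratios of 0.06 and 0.50, the first of which was −0.28 with equal weight for each library. RBMX, the X-linked hnRNP G, stood at −0.10 and −0.17, with retrocopies at 7.77%, 9.67% and 16.1% of the reads on RBMX and its retrocopies together.

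The run of a library took up a larger part of the spread of members than of most genes, without matching for level. Over the 242 libraries, a median of 20.1% of a member's variance in log2(CPM + 1) lay between runs (1.38% for RBMX to 42.5% for HNRNPA1), against a median of 5.97% for 10526 genes, and 31 of 34 members were above that median. SRSF3 (35.3%), SRSF6 (31.6%) and HNRNPL (31.4%) followed HNRNPA1. Within the Hoechst, benzene and imatinib runs, the median SD on the log2 scale was 1.34, 1.77 and 1.04 for members. It was 2.29, 2.51 and 1.98 for all genes used in the measure of spread below. A larger spread within runs lowers the share between runs, and the part of level and detection in these shares was not tested. The shares describe the libraries at hand and, with runs as single samples, carry no test.

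Stain and drug label were compared within a run. With benzene, 1 of 34 members was at least 2-fold higher in Orange than in Green libraries, against 12.9% of 10072 genes, and 0 were lower, against 10.9%, with a member median of 0.10 and a gene median of 0.05. The 1 member was SRSF9, with 0 to 479 CPM (median 18.3) in Green and 2.22 to 559.6 (median 65.3) in Orange libraries and a log2 ratio of 1.08 (1.02 to 1.17). Of the Orange libraries, 79.4% lay above the Green median, and without the Orange library richest in SRSF9 the ratio was 0.84, without the richest Green library 1.71. With equal weight for each library, 2 members were 2-fold higher, beside 5.23% of genes, and 0 lower, beside 2.88%. They were SRSF4 (1.51) and SRSF9 (1.30). The ratio of sums of SRSF4 was 0.06, 1 Green library gave 44.7% of its Green reads, and 76.5% of Orange libraries lay above its Green median. HNRNPH2 followed at 0.98, a value that was 1.94 without the Green library that held 52.3% of its reads there and 0.56 without the richest Orange library, and 35.3% of the Orange libraries lay above the Green median. HNRNPLL (0.87) was at 1.17 without the Green library richest in it and at 0.25 without the richest Orange library. The lowest ratios were those of HNRNPUL1 (−0.84) and HNRNPL (−0.71), which were −0.25 and −0.13 without the Green library richest in each. With equal weight for each library they were −0.24 and −0.61.

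With imatinib, 0 members were at least 2-fold higher, against 3.76% of 11416 genes, and 0 were lower, against 4.3%. The member median was −0.13 and that of all genes −0.02. Of the 34 members, 26 lay below 0 and 8 above it, and with TMM scaling 11 lay above it. The share of all genes below 0 was close to the 52.9% that lay below SRSF11, at 0.002. The lowest were HNRNPL at −0.48, with medians of 30.9 CPM in Green and 23.02 in Orange libraries, and PTBP1 at −0.39, with medians of 84.1 and 52.9. The highest were HNRNPK at 0.38, with medians of 210.2 and 272, and HNRNPH2 at 0.28. The ranges of Green and Orange libraries overlapped for each of these genes.

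**Figure D4:**
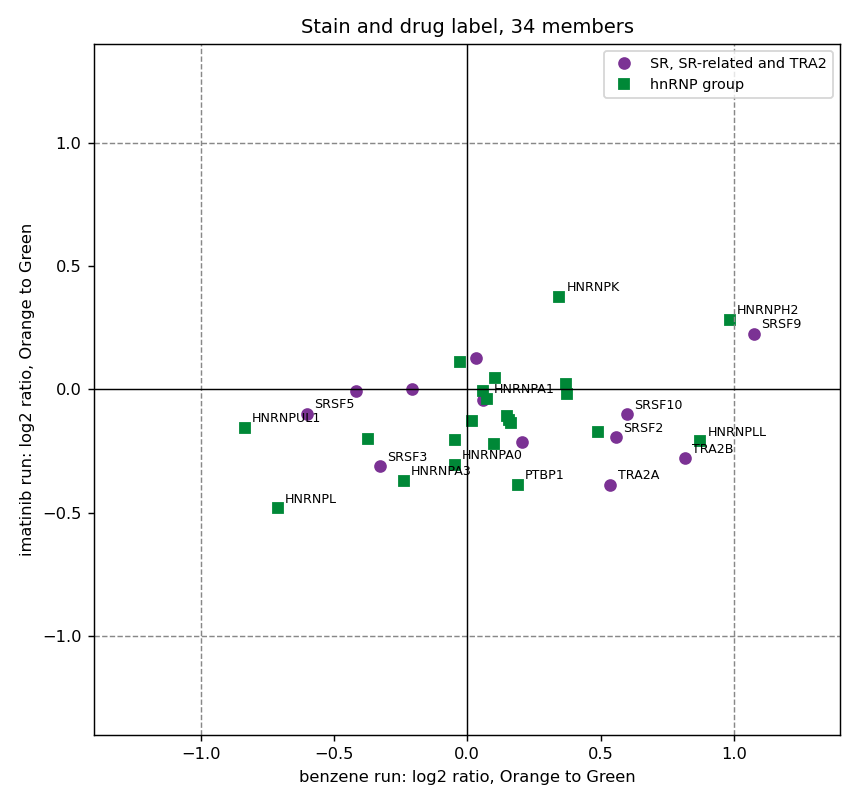
Log2 ratio of summed CPM in Orange to Green libraries of 34 members, in the benzene run (x axis, 34 and 31 libraries) and in the imatinib run (y axis, 45 and 50 libraries), with SR genes as circles, hnRNP genes as squares and 2-fold marks dashed. SRSF9 at 1.08 is the 1 member past a mark, and the imatinib-run values lie between −0.48 and 0.38.

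A test of Orange against Green over both runs, with the 4 sums as samples and the run as a term (edgeR quasi-likelihood, Benjamini-Hochberg adjustment over 17684 genes, two-sided), called 0 genes (0%). At an unadjusted p under 0.05 it had 439 genes (2.48%). DESeq2 called 214 of 15061 genes, with 0 of 34 members among them. At so small a share of all genes, 0 members called does not set members apart. One member had an unadjusted p under 0.05 in edgeR: SRSF3, at −0.33 ± 0.11 on the log2 scale (SE, 4 sums), with an edgeR p of 0.039 and an adjusted p of 1. Its sums were 1033 CPM in Green and 824 in Orange in the benzene run and 1094 and 882 in the imatinib run, so that Orange was lower in both. HNRNPK had the next smallest unadjusted p, with 0.35 ± 0.17 and an edgeR p of 0.119. With 1 residual degree of freedom, a p that misses the threshold does not show that members were alike in Green and Orange.

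Spread over the libraries of a run was read against genes of like level, as the log2 squared coefficient of variation less the median in 20 bins. Members lay above that trend in 10 of 34 cases in the Hoechst run, 13 of 34 in the benzene run and 7 of 33 in the imatinib run, where 49.9% of all genes did. Below the trend in all 3 runs were 13 members, among them HNRNPA1 (−1.64, −2.30 and −1.46), HNRNPL, PTBP1, TRA2A and TRA2B, and above it in all 3 were HNRNPF (0.66, 1.41 and 0.30) and RBMX. SRSF6 stood furthest above the trend in the Hoechst run (1.38) and in the imatinib run (1.03). Behind it were HNRNPA0 (0.72) and HNRNPF in the former and HNRNPH1 (0.71) and HNRNPH2 (0.61) in the latter. In the benzene run HNRNPF was followed by HNRNPH2 (0.90). HNRNPUL2 stood at 2.52 there, but in the lowest bin of level, where the trend was −0.14, and its spread before the trend was taken off was 2.38, so that value rests on the trend of the bin. Furthest below the trend beside HNRNPA1 were HNRNPL (−1.90) and HNRNPD (−1.30) in the Hoechst run and HNRNPA3 (−1.46) and HNRNPA0 (−1.35) in the benzene run. In the imatinib run these were SRSF10 (−2.19), HNRNPL (−2.04) and HNRNPUL1 (−1.74). A value below the trend is relative to genes of like level and does not mean an even gene. HNRNPA0 had an SD of 2.36 on the log2 scale in the benzene run, where the median over members was 1.77.

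**Figure D5:**
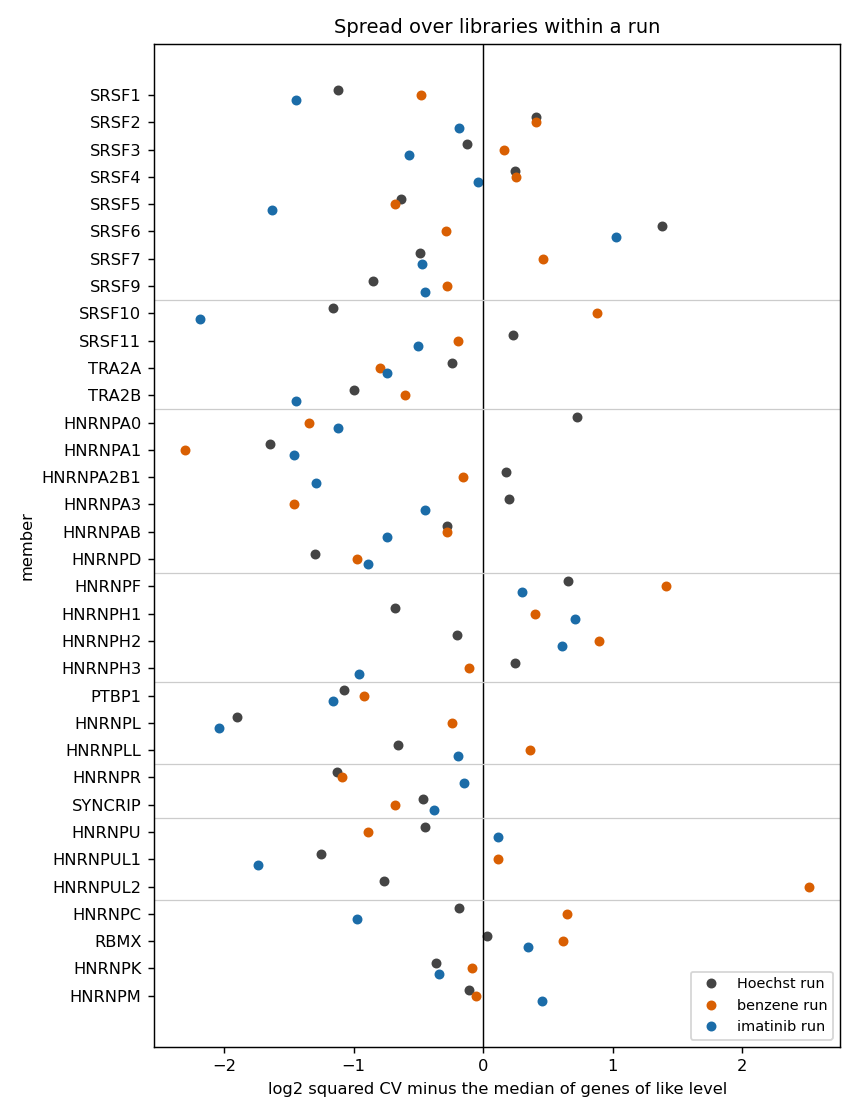
Log2 squared coefficient of variation of each member over the libraries of a run, less the median of genes of like level, for the Hoechst (n = 82), benzene (n = 65) and imatinib (n = 95) runs, with 0 as the trend of all genes. HNRNPA1 lay at −1.46 or below in every run and SRSF6 above 1 in the Hoechst and imatinib runs.

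Variation in common from library to library was measured between pairs of members. The median Spearman correlation over pairs of members was 0.03 in the Hoechst run, 0.06 in the benzene run and 0.07 in the imatinib run, beside medians of 0.03, 0.05 and 0.04 over all pairs of genes that at least 50% of libraries held. Of the member pairs, 12.1%, 7.13% and 12.7% lay above the value that 5% of gene pairs exceeded in the same run. With the number of detected genes per library taken out, the member medians were 0.02, 0.03 and 0.06, beside 0.005, 0.006 and 0.003 over all pairs. Of the member pairs, 14.1%, 7.66% and 19.1% then lay above the value that 5% of gene pairs exceeded. All these values share library depth and composition, and so weak a correlation is no finding. Of the 528 pairs with a value in every run, 3 (0.568%) exceeded 0.3 in all 3 runs. The share over all pairs of 5098 genes was 0.0936%. Gene pairs were not matched to member pairs for level or detection, here or above. The part of level and detection in these shares was not tested. All 3 member pairs held HNRNPH1. TRA2A with HNRNPH1 had 0.48, 0.57 and 0.43, SRSF2 with HNRNPH1 0.38, 0.39 and 0.41, and SRSF11 with HNRNPH1 0.30, 0.51 and 0.32. The pair with the lowest mean was SRSF2 with HNRNPF, at −0.41, −0.08 and −0.24. SRSF3 and SRSF6 reached 0.59 over the 95 imatinib-run libraries but 0.26 and 0.22 in the other 2 runs. The summed level of all members followed the share of mitochondrial reads downwards in the Hoechst run (Spearman −0.42 over 82 libraries), 2 shares of the same total, and with −0.18 and −0.22 in the benzene and imatinib runs.

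Genes that work with the members were described from 3 lists. Of 38 core spliceosome genes, 2 were at least 2-fold higher and 10 lower in benzene-run Green than in Hoechst libraries, with SF3B5 (1.53) and SNRNP70 (−1.87) at the ends, beside the same 11.8% and 26.7% of all genes. In imatinib-run Green 4 were higher, led by SF3B4 (1.69), and 1 was lower, SNRPG (−1.03), beside 13% and 20.6%. Of 11 genes for enzymes that modify SR and hnRNP proteins and for their importins, PRMT5, an arginine methyltransferase, was higher in both, at 2.79 and 2.45 (44.8 CPM in the Hoechst run, 316 and 249 in the Green groups), and PRMT1 stood at 0.44 and 1.79. CLK2, a kinase of SR proteins, was at −1.75 in the imatinib run. Of 31 other splicing regulators with enough reads, 0 were higher in either, and 5 and 7 were lower, among them KHSRP (−2.31) in the benzene run and PTBP2 (−1.74), a relative of PTBP1, in the imatinib run.

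Between Orange and Green, 5 genes of these lists lay past 2-fold with benzene, where 12.9% of all genes were higher and 10.9% lower. CLK3 (−1.31) and CLK4 (−1.55), kinases that phosphorylate SR proteins, were lower, from 61.5 and 28.5 CPM in Green to 24.1 and 9.10 in Orange libraries, and PRPF31 (−1.64) and PHF5A (1.04) of the core spliceosome lay on either side. DDX39B, an RNA helicase of splicing and export, was at −1.11, from 28.4 to 12.6 CPM. With imatinib, PRPF19 (−1.11) was the 1 gene of the 3 lists past 2-fold. None of the 3 lists was tested.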

How the data were processed

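The deposited table holds whole-number counts of reads per gene, which the authors made by trimming with skewer, aligning to GRCh37 with ERCC spike-ins with HISAT2, marking duplicates with Picard 1.92 and assigning reads with 1 mapping place to genes of Ensembl 75 in featureCounts (Subread 1.5.0). Whether strand was used is not given in the sources used here. The authors' CPM table was not used. Of 267 titles, 263 had a column, 4 titles had none and 4 columns matched no title and were not used. No 2 columns were identical (0), and no doublet caller was run. Library totals leave out ERCC.

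Libraries with at most 70% of gene reads in their 500 most abundant genes were kept. A gene entered a comparison of sums if more than 2 reads were found in at least 20% of the libraries of a group. Ratios used CPM of summed counts with a pseudocount of 1. Intervals at 95% cover counting error only, since reads without molecular identifiers are not independent molecules. Orange and Green sums were tested with edgeR 4.0.16 in R 4.3.3 (quasi-likelihood, TMM, filterByExpr) and, as an alternative, DESeq2 1.42.0. Other steps used Python 3.11.15 with numpy 2.4.6, pandas 2.3.3, scipy 1.17.1 and matplotlib 3.10.9, and the scripts for ratios, spread, correlations and the edgeR fit were tested on simulated data. Values were given in full for members highest and lowest in level or spread, past 2-fold, smallest in p, or most correlated. The members and lists were chosen with earlier results of these data known.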

Additional observations from a re-analysis of the deposited data

How the results depend on the processing

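Across 29 results that answer a comparison, 165 of 187 alternatives gave a value within the limits set for it, and 22 did not. The 37 values of members past 2-fold kept their direction under all 370 alternatives, and 41 of the 370 put them under 2-fold. These values were picked for being past 2-fold, and not every alternative could bring them under it. Dropping the gene filter left each ratio as it was, and leaving out the richest library of the lower group tends to enlarge it. The tally therefore does not measure how firm the values are. The cause of the differences below was not tested. DESeq2 called 214 of 15061 genes between Orange and Green, where edgeR called 0 of 17684. TMM scaling gave 4 members higher and 6 lower between the benzene and Hoechst runs (18.3% and 20.5% of genes), 5 lower between the imatinib and Hoechst runs (17.4%), and 0 higher in Orange with benzene (11.8%). Equal weight for each library gave 8 higher, 4 lower and a median of 0.22 (genes 0.18) between the imatinib and Hoechst runs, and 21 higher and a median of 1.08 (genes 0.75) between the CellTracker runs. It gave 2 higher, SRSF4 and SRSF9, in Orange with benzene (5.23%). A pseudocount of 10 gave 0 there (6.04%). With all libraries, 1 member was lower between the CellTracker runs (11.3%), and the median correlation in the Hoechst run was 0.23 (all genes 0.18). The median number of members detected with at least 10 reads was 29 in the benzene run and 32 in the imatinib run, and 30 and 32 after thinning. Of alternatives chosen after seeing the data, libraries with 5000 to 9000 detected genes gave 2 higher (13.8%) and 1 lower (12.1%) in Orange with benzene, and leaving out the richest library gave 0 higher (from Orange) or 3 (from Green). For the richest library left out, no share over all genes was computed, and the direction of the change was set in advance. Adding retrocopy reads was also chosen after seeing the data. No paired analysis was possible because the library numbers in the labels only name libraries. Each group is 1 sample, so differences between cultures could not be measured.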
